A study of Rattus norvegicus with 6 samples.

Results

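The genes described here carry signals between axons and Schwann cells, the glia of peripheral nerves: Lgi4, Adam22, Adam23, Adam10, Adam17, Bace1, Gldn and Adgrg6. They are 8 of the 29468 gene symbols in the deposited tables, chosen by name for their role, and Adgrg6 appears there under its older symbol Gpr126. The labels give the animals as wild type rats of the LEWIS strain, whereas the study's methods describe its grafted cells as coming from transgenic LEWIS rats with a red fluorescent protein, and which of these gave the sequenced cells is not settled here. Schwann cell precursors (SCPs, 3 samples) were taken at embryonic day 14 from the sciatic nerves and brachial plexus, with no treatment. Repair Schwann cells (RSCs, 3 samples) were taken from animals of 10 weeks, out of the distal stump of a sciatic nerve cut 1 week earlier. Age, tissue and injury differ together between the groups and cannot be told apart. Both kinds of cell were dissociated with enzymes, with more collagenase and for longer in RSCs, and freed of cells that stuck to an uncoated flask, a step against fibroblasts and macrophages. They were not sorted, so each sample is a bulk preparation. The paper's Sox10 labelling of cultured cells marked most cells of both kinds as Schwann cells. In a bulk, fewer cells of a type and less RNA per cell cannot be told apart.

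LGI4 is a protein secreted by Schwann cells that binds ADAM22 on axons and is needed for axons to be sorted and myelinated. ADAM23 is a related receptor of the LGI proteins, and ADAM22 and ADAM23 both lack an active protease, whereas ADAM10 and ADAM17 are membrane proteases that cut the outer parts off other membrane proteins. BACE1 (beta-secretase) and ADAM17 both cut neuregulin 1, the axonal growth factor that controls myelin thickness, BACE1 promoting myelination and ADAM17 restraining it. Gliomedin (Gldn) is secreted at the tips of Schwann cells and gathers sodium channels at the node of Ranvier, the gap between stretches of myelin, and ADGRG6 is an adhesion receptor of Schwann cells that raises cyclic AMP and is needed for myelination to begin.

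Of the receptors and proteases, Adam23 and Adgrg6 were lower in RSCs than in SCPs, with log2 differences of -2.19 (SE 0.25) and -1.15 (SE 0.14) and no overlap between the groups. Gldn was low in every sample and its 3 RSC values lay above its 3 SCP values. Adam10 and Adam17 were high in both groups and differed little. The values of Lgi4 and Bace1 depended on how transcripts without a name were counted, and both ways are given below. Levels are in FPKM, fragments per kilobase of transcript and per 1000000 mapped fragments, summed over the named transcripts of a gene. Fold changes are RSC minus SCP on the log2(FPKM + 1) scale, on which adding 1 understates the change of low genes, with the standard error (SE) and the Benjamini-Hochberg adjusted p of limma. A gene is called where its p before adjustment is under 0.01.

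Unnamed transcripts are models that Cufflinks assembled from the reads of a single sample, and they held 18.6% to 31.9% of the FPKM of a sample. They stood at 7 of the 8 genes, and where they took most of the reads the named gene could be listed at 0. A second measure, chosen after seeing the data, therefore multiplied the FPKM of each transcript by its length in kilobases and summed named and unnamed transcripts of the same Cufflinks locus. It gives fragments per 1000000 mapped (FPM), which do not depend on which transcript a fragment was assigned to, but can be compared between samples only, not between genes of different length. The 37 unnamed transcripts counted in this way reached 0 to 1103 bases past the named span of their gene. Their strand is not in the tables, so fragments of an overlapping gene on the other strand could not be set apart.

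In RSCs the order of the FPKM levels of named transcripts was Lgi4, Adam10, Adam17, Adgrg6, then Adam23, Bace1 and Gldn, and Adam22 was listed at 0. The values of neighbours in this order did not overlap from Lgi4 down to Adgrg6 or between Adgrg6 and Adam23, while Adam23 overlapped Bace1 and Bace1 overlapped Gldn. In SCPs, Adam10, Lgi4 and Adgrg6 headed the order with overlapping values. Adam17 and Adam23 followed with values that overlapped as well, then came Bace1, Adam22 and Gldn, each overlapping the next. With the FPKM of the unnamed transcripts added, Lgi4 had the highest level of the 8 genes in both groups, at 127 to 152 FPKM in SCPs and 189 to 225 FPKM in RSCs, and did not overlap Adam10, the next gene. In RSCs Bace1 then lay above Adam23 without overlap, at 11.8 to 22.1 against 4.04 to 5.70 FPKM, and Adam17 and Adgrg6 overlapped. In SCPs Bace1 then came before Adam17, with overlapping values.

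**Figure D1:**
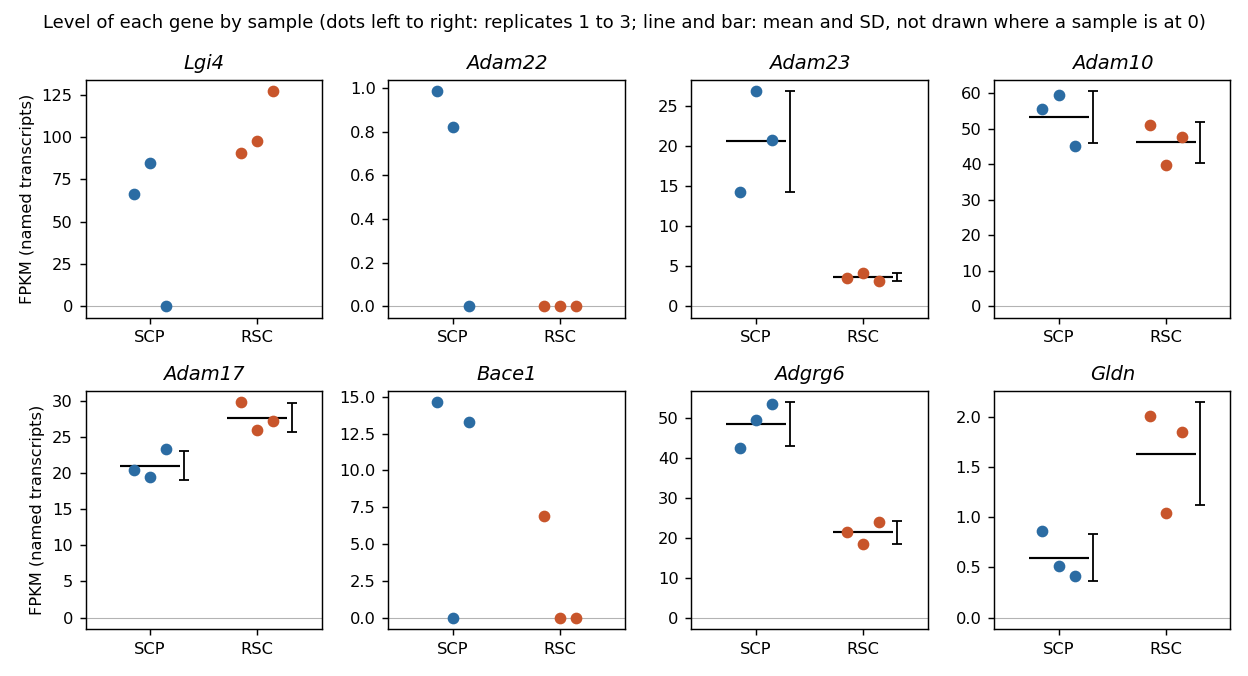
Level of each gene in FPKM of its named transcripts, one dot per sample, SCPs in blue and RSCs in orange, each panel with its own axis from 0. Lines and bars give the mean and SD of 3 samples and are left out for Lgi4, Adam22 and Bace1, which were listed at 0 in at least 1 sample. Adam23 and Adgrg6 lie lower in all RSCs, and Adam17 and Gldn lie higher in all RSCs.

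Lgi4, the ligand, spans chromosome 1 from 89491589 to 89501912 on the rn6 assembly in 3 annotated transcripts. Its FPKM was 66.3, 84.8 and 0 in SCPs and 90.5, 97.7 and 128 in RSCs, here and below in the order of the replicate numbers. All RSCs lay above all SCPs, and SCP replicate 3 stood apart at 0. The difference of 2.55 (SE 1.72) missed the threshold (limma, adjusted p = 0.27), and without SCP replicate 3 it was 0.47 (limma, adjusted p = 0.12). The 3 transcripts took turns. The one of 2538 bases held all of the named FPKM in SCP replicate 2, the one of 2258 bases was listed at 0 in SCP replicates 2 and 3 and in RSC replicate 2, and the one of 2987 bases was above 0 only in RSC replicates 2 and 3, at 30.6 and 32.5 FPKM.

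Unnamed transcripts held 74.2%, 67.7% and 100% of the Lgi4 fragments in SCPs and 67.7%, 58.0% and 51.6% in RSCs. Counted together, FPM were 610, 665 and 526 in SCPs and 660, 623 and 670 in RSCs. On this measure SCP replicate 3 lay close to the others and the groups overlapped, with a difference of 0.12 (SE 0.095; limma, adjusted p = 0.28). In SCP replicate 3 a further unnamed transcript of 3954 bases and 71.9 FPKM lay wholly inside the span of Lgi4 as a locus of its own. Including such transcripts brought that sample to 811 FPM and the difference to -0.08 (SE 0.11), so neither direction held. Adding the unnamed FPKM without regard to length gave the opposite picture, 0.57 higher in RSCs (limma, adjusted p = 0.0029). The unnamed transcripts were up to 6723 bases long in SCPs and up to 4511 bases in RSCs, and the same number of fragments on a longer model gives a lower FPKM. Those that ran past the annotated end, by up to 759 bases, met the neighbouring gene Fxyd3.

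Adam22, the axonal receptor of LGI4, spans chromosome 4 from 22700838 to 23002969 and has 1 annotated transcript of 9238 bases. It had 0.988, 0.819 and 0 FPKM in SCPs and was listed at 0 in all 3 RSCs, where the upper bounds given by Cufflinks were 0.0411 to 0.0453 FPKM. In SCP replicate 3 an unnamed transcript of 9165 bases over the whole span held 1.01 FPKM. Its mean was below the minimum of 1 FPKM, so it was not in the FPKM comparison. In FPM Adam22 had 9.13, 7.56 and 9.25 in SCPs and 0 in each RSC. It entered the FPM comparison only through its SCP values, so no fold and no p are given against values of 0.

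Adam23, the other inactive ADAM receptor, spans chromosome 9 from 70133708 to 70293312 in 3 annotated transcripts. SCPs had 14.2, 26.9 and 20.7 FPKM and RSCs had 3.58, 4.11 and 3.18 FPKM. The lowest SCP was well above the highest RSC. The mean fell from 20.6 ± 6.33 (SD, n = 3) to 3.62 ± 0.468 (SD, n = 3) FPKM, a difference of -2.19 (SE 0.25; limma, adjusted p = 0.0010). Adam23 was the 1 gene of the 8 both called and past a 4-fold change, and without SCP replicate 2, its highest sample, the difference was -1.98 and no longer past it. The transcript of 6241 bases held most of the named level in each SCP, at 10.1, 26.9 and 15.1 FPKM, against 1.21, 2.14 and 3.18 FPKM in RSCs.

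With unnamed transcripts counted, Adam23 had 137, 287 and 249 FPM in SCPs and 25.5, 24.9 and 22.6 in RSCs, a ratio of the means of 9.23. SCP replicate 1 was the low sample of its group on both measures, and it still stood far above the highest RSC. The difference was -3.09 (SE 0.26; limma, adjusted p = 4.8e-05). Unnamed transcripts held 35%, 41.6% and 48.0% of the Adam23 fragments in SCPs against 11.6%, 23.6% and 12.3% in RSCs, so the named FPKM left out a larger part of the fragments in SCPs.

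Adam22 and Adam23 are genes that neurons also express, and some markers of neurons were lower in RSCs with them. Of 8 neuron markers, 6 were tested and 2 were called, Elavl4 and Stmn2, both higher in SCPs, as were 22.4% of all genes tested. The summed levels of the 8 were 30.5 to 53.4 FPKM in SCPs and 19.0 to 28.4 FPKM in RSCs. In FPM 5 of them were called higher in SCPs (38% of all genes) and 1 higher in RSCs (24.8%), Nefl, a neurofilament protein. Of these 5, Elavl4, Stmn2, Isl1 and Syt1 reached the minimum mean in FPM only through their SCP values. Elavl4, an RNA-binding protein of neurons, was listed at 0 in all RSCs and had 1.32 to 2.92 FPKM in SCPs. Stmn2 had 3.19 to 5.01 FPKM in SCPs and at most 0.127 FPKM in RSCs. Elavl4 and Stmn2 reached the minimum mean only through their SCP values. Isl1, a transcription factor of sensory and motor neurons, was listed at 0 in all RSCs and had 8.51, 0 and 9.49 FPKM in SCPs. It was not called in FPKM. The part of neurons in the Adam22 and Adam23 differences was not tested.

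**Figure D2:**
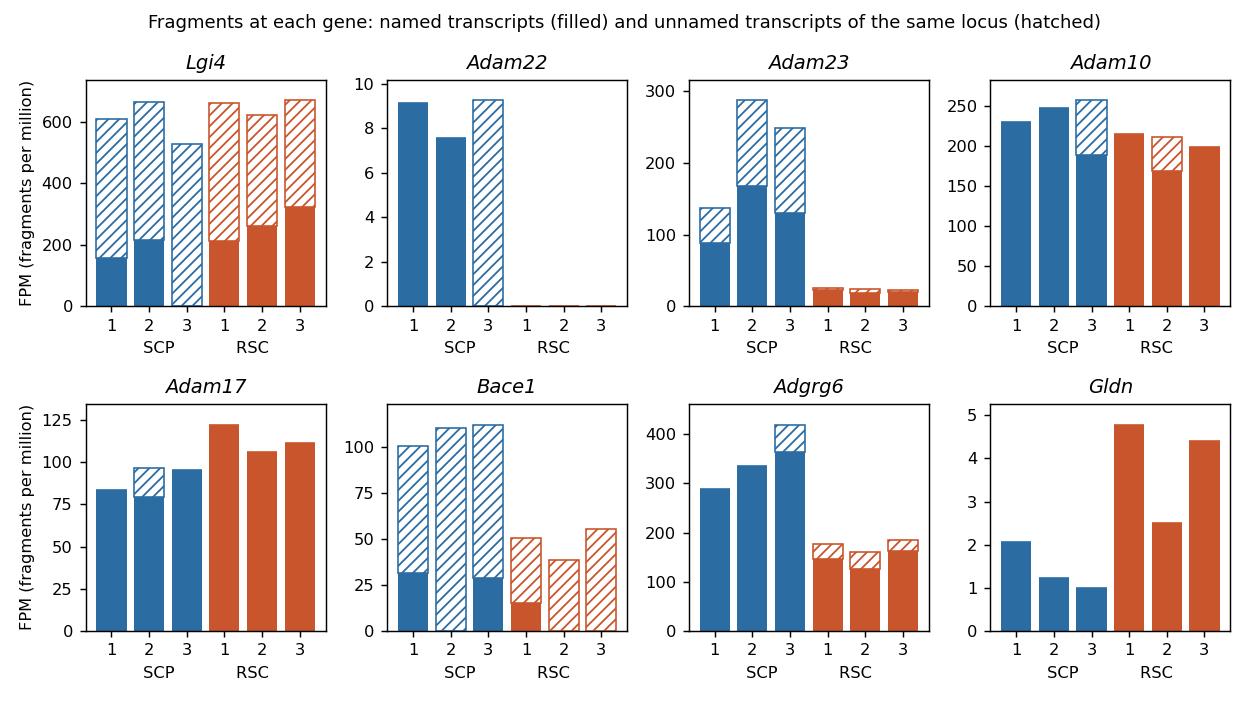
FPM (fragments per 1000000 mapped) at each gene in every sample, SCP replicates 1 to 3 in blue and RSC replicates 1 to 3 in orange, each panel with its own axis from 0. Filled bars are named transcripts and hatched bars are unnamed transcripts of the same locus. The total of Lgi4 is level over the 6 samples while its named part runs from 0 to 325, and the totals of Bace1 separate the groups while the named parts do not.

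Adam10 spans chromosome 8 from 77107536 to 77238652 in 4 annotated transcripts and is the main protease that sheds Notch receptors and cadherins. It had 55.7, 59.4 and 45.1 FPKM in SCPs and 51.2, 39.8 and 47.7 FPKM in RSCs. The groups overlapped and the difference of -0.20 (SE 0.15) was not past the spread (limma, adjusted p = 0.31). In SCP replicate 3 and in RSC replicate 2, the lowest sample of each group, the same 2 transcripts were listed at 0 and an unnamed transcript appeared with 16.2 and 9.18 FPKM. In FPM the values were 231, 248 and 257 in SCPs and 215, 212 and 199 in RSCs, all SCPs above all RSCs, with a difference of -0.23 (SE 0.070; limma, adjusted p = 0.019), which missed the threshold for a call. That is 0.05 above the median gene of the same comparison, and with median-of-ratios scaling the FPKM difference was 0.0046, so the direction of Adam10 depended on the scaling.

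Adam17 spans chromosome 6 from 43400525 to 43448280 in 1 annotated transcript and is the protease that frees tumour necrosis factor and cuts neuregulin 1. Its FPKM was 20.4, 19.4 and 23.3 in SCPs and 29.9, 26.0 and 27.3 in RSCs. All RSCs lay above all SCPs, by a narrow gap. The difference of 0.38 (SE 0.12) had an adjusted p of 0.037 with limma and missed the threshold for a call. It passed that threshold with median-of-ratios scaling, at 0.58, and without SCP replicate 3, at 0.45. In FPM it was 83.7, 96.9 and 95.5 in SCPs and 122, 106 and 112 in RSCs (0.30, SE 0.090; limma, adjusted p = 0.020), again without overlap. With the FPKM of unnamed transcripts added, by contrast, SCP replicate 2 rose to 28.1 FPKM, the groups overlapped, and the difference was 0.21 (limma, adjusted p = 0.20).

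The ratio of Adam17 to Adam10 within a sample does not depend on scaling between samples. In fragments it was 0.363, 0.390 and 0.371 in SCPs and 0.569, 0.502 and 0.562 in RSCs. Every RSC was above every SCP, as was also the case for the ratio in named FPKM, which ran from 0.327 to 0.517 in SCPs and from 0.572 to 0.652 in RSCs. The ratio was chosen after seeing the data, and its exact permutation p of 0.1 (two-sided) is the smallest that 3 samples against 3 allow. All 8 leukocyte markers were called higher in RSCs, as were 18.1% of all genes tested. Their summed levels were 13.3 to 39.7 FPKM in SCPs and 2197 to 2643 FPKM in RSCs. Ptprc, Cd14 and Itgam among them reached the minimum mean only through their RSC values. Adam17 and Adam10 are expressed by leukocytes as well. Their part in either gene's values was not tested.

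Bace1 spans chromosome 8 from 50140092 to 50162388 in 1 annotated transcript of 2158 bases. Its named FPKM was 14.7, 0 and 13.3 in SCPs and 6.90, 0 and 0 in RSCs, and Cufflinks marked the transcript as low on data in all 6 samples. The groups overlapped at 0 and the difference of -1.61 (SE 1.36) missed the threshold (limma, adjusted p = 0.38). Unnamed transcripts held 68.5% to 100% of the Bace1 fragments in every sample. With them, FPM were 100.4, 110 and 112 in SCPs and 50.3, 38.5 and 55.6 in RSCs. The lowest SCP then stood clear of the highest RSC, and the difference was -1.16 (SE 0.14; limma, adjusted p = 0.00027), or -0.94 (SE 0.10) when unnamed transcripts lying inside the gene as separate loci were counted too. Of the 10 unnamed transcripts at Bace1, the ones that ran past its annotated end did so by up to 1103 bases, and that stretch meets the neighbouring gene RGD1307500 in the deposited tables.

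Adgrg6 spans chromosome 1 from 8593342 to 8751534 in 2 annotated transcripts. SCPs had 42.6, 49.4 and 53.5 FPKM and RSCs had 21.6, 18.3 and 24.1 FPKM. Each SCP was above each RSC by a wide gap, and the samples within a group lay close together. The mean fell from 48.5 ± 5.54 (SD, n = 3) to 21.3 ± 2.87 (SD, n = 3) FPKM, a difference of -1.15 (SE 0.14; limma, adjusted p = 0.0013). The transcript of 6793 bases held the named level alone in 5 of the 6 samples, and the one of 6878 bases was above 0 only in RSC replicate 2, at 4.02 FPKM. In FPM the values were 289, 336 and 420 in SCPs and 177, 160 and 186 in RSCs, with means of 348 and 174 (-0.98, SE 0.14; limma, adjusted p = 0.00060). Adgrg6 is expressed in the Schwann lineage, and Sox10, the transcription factor that defines it, had 175 to 181 FPKM in SCPs and 143 to 149 FPKM in RSCs, a difference of -0.30 (SE 0.058).

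Gldn spans chromosome 8 from 58870516 to 58914605 in 1 annotated transcript of 2385 bases, with no unnamed transcript at its locus. It had 0.865, 0.515 and 0.414 FPKM in SCPs and 2.01, 1.04 and 1.85 FPKM in RSCs. All RSCs were above all SCPs, but the level was low throughout, and the Cufflinks bounds of single samples overlapped, with an upper bound of 1.37 FPKM in SCP replicate 1 and a lower bound of 0.478 FPKM in RSC replicate 2. The ratio of the means was 2.73. The difference of 0.71 (SE 0.27) missed the threshold (limma, adjusted p = 0.073), as did that in FPM, 1.00 (SE 0.29; limma, adjusted p = 0.017). Gldn reached the minimum mean of 1 FPKM only through its RSC values.

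Over the 8 genes, 7 reached the minimum mean FPKM and 2 of them were called, Adam23 and Adgrg6, against 40.5% of the 13003 genes tested. Both calls were higher in SCPs, as were 22.4% of all genes tested, and no member was called higher in RSCs, as were 18.1%. Adam23 was both called and past 4-fold, as were 11.6% of all genes tested. The groups did not overlap for 5 of the 7 tested genes, against 58.6% of all genes tested. RSCs lay above for 3 (24.9% of all) and SCPs above for 2 (33.7%). Gldn is among these 5 and the 3 with RSCs above, and it reached the minimum mean only through its RSC values. In FPM 4 of the 8 were called, Adam22, Adam23, Bace1 and Adgrg6, against 62.7% of 15085 genes, all 4 higher in SCPs (38% of all) and none higher in RSCs (24.8%), and 2 past 4-fold (16.6%). Adam22 is among these 4 and these 2 only through its SCP values, against RSCs at 0. The groups did not overlap in FPM for 7 of the 8, against 76% of all genes. RSCs lay above for 2 (29.9%) and SCPs above for 5 (46.1%), and Adam22 is again among the 5. With unnamed transcripts added to the FPKM 4 of 7 were called, against 57.4%, 3 higher in SCPs and 1, Lgi4, higher in RSCs. With median-of-ratios scaling besides, 4 were called, 2 higher in RSCs and 2 higher in SCPs. Of all genes called under these settings, 40.4% and 53.3% were higher in RSCs. With those inside the gene counted in FPM 4 of 8 were called, all higher in SCPs, against 62.5%. In FPKM and in FPM the members called were a smaller share than among all genes. These shares were not tested. The median log2 difference of all genes tested was -0.17 in FPKM and -0.28 in fragments, and median-of-ratios scaling moved it to 0.0062. Relative to the median gene, the fragment differences were -2.81 for Adam23, -0.88 for Bace1, -0.70 for Adgrg6, 0.40 for Lgi4, 0.58 for Adam17 and 1.28 for Gldn.

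**Figure D3:**
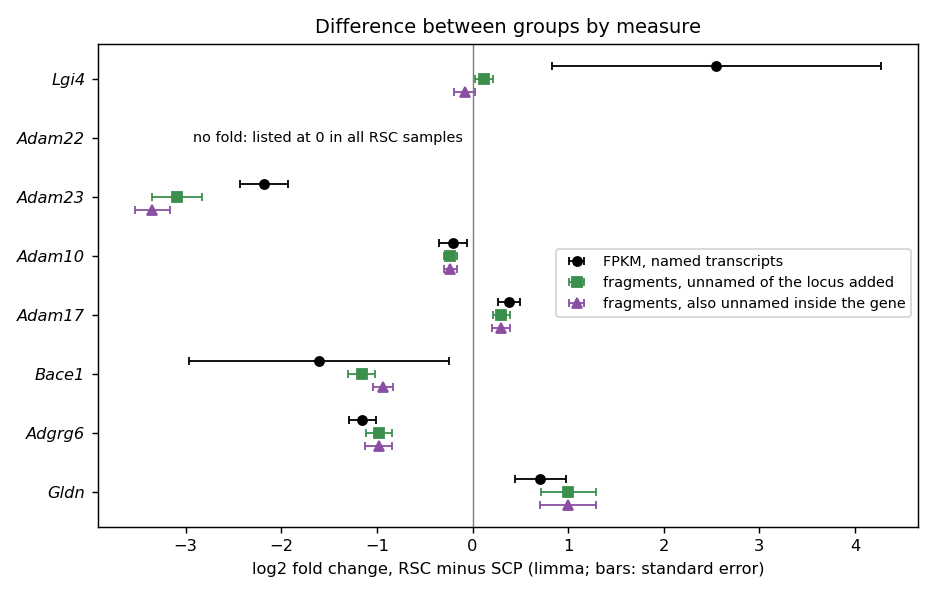
Log2 difference between RSCs and SCPs for each gene, with its standard error from limma, by 3 measures: FPKM of named transcripts, fragments with unnamed transcripts of the locus, and fragments with unnamed transcripts inside the gene added as well. Adam23, Adgrg6 and Bace1 lie left of 0 and Adam17 and Gldn right of 0 on all 3, while Lgi4 moves from 2.55 to 0.12 and -0.08.

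The sequences before the transcription starts of Bace1, Adgrg6 and Gldn are shown since their groups did not overlap in FPM and their starts are unlike in base composition. They are RefSeq sequences on the GRCr8 assembly, a later one than the files' rn6, and cover the 250 bases before the start, on the strand of the gene, with each CpG in capitals. A start was found for 6 of the 8 members, and Lgi4 and Adam23 are not among them.
Adgrg6, chr1:10773876-10774125, minus strand: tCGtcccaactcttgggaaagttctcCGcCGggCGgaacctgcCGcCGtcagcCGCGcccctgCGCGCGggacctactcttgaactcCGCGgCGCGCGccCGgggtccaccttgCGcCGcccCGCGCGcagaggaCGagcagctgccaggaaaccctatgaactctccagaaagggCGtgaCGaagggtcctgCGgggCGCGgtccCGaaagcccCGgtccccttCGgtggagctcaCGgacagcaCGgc
Bace1, chr8:55038592-55038841, plus strand: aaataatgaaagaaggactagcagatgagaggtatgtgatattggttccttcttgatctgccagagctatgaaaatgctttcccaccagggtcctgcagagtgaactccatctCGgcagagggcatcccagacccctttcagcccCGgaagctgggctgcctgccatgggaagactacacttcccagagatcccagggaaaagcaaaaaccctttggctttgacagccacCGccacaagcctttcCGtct
Gldn, chr8:63575020-63575269, plus strand: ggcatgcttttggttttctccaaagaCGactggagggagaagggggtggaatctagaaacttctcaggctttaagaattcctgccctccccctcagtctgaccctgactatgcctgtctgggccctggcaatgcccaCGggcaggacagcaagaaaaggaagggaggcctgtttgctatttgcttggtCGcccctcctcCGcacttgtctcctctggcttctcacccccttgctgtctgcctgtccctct
Adgrg6 had 33 CpG in this stretch, more than in 96.2% of 27457 promoters of the same length, whose median was 6. Bace1 and Gldn had 4 each, at the percentile of 36.1. Among those not printed, Adam10 had 30, Adam22 had 24 and Adam17 had 21. The letters GGGCGG, a GC box, were found on either strand 2 times each in Adgrg6 and Adam10 and 1 time each in Adam22 and Adam17, and were held by 32.4% of all promoters. ACAAAG, a motif of SOX factors held by 16.0% of all promoters, and GCGNGGGCG, a motif of EGR factors held by 4.5%, were in none of the 6. Adgrg6, with many CpG, and Bace1, with few, were both lower in RSCs, Bace1 in FPM only, and Gldn, as poor in CpG as Bace1, had its higher values in RSCs without being called.

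Another 68 genes of the same pathways were listed by role. In FPKM 54 of them were tested and 25 were called, against 40.5% of all genes tested. The higher level was in RSCs for 17 (18.1% of all genes) and in SCPs for 8 (22.4%), and 10 were past 4-fold (11.6%). Their median difference was 0.21, against -0.17 for all genes tested. In FPM 64 were tested and 47 were called, against 62.7% of all genes, 28 higher in RSCs (24.8%) and 19 higher in SCPs (38%). The counts by role that follow are small, stand against these same shares of all genes, and were not tested as groups. Values of single genes below are FPKM means of 3 samples with differences from limma.

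Among the other LGI proteins and their receptor ADAM11, none of 2 tested was called in FPKM. Lgi1, the member known from the brain, had 2.22 ± 1.41 (SD, n = 3) FPKM in SCPs and 0.590 ± 0.429 (SD, n = 3) FPKM in RSCs, with an adjusted p of 0.093 by limma. In fragments Lgi1 and Adam11 were both called and higher in SCPs, with differences of -3.50 and -2.32, and Lgi3 was higher in RSCs by 0.94. Lgi1 reached the minimum mean only through its SCP values, in FPKM and in fragments. Lgi1, Lgi3 and Adam11 were named after their values were seen.

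Of 12 tested regulators of ADAM10 and ADAM17, 5 rose and 1 fell in FPKM, and of 13 in FPM 6 rose and 3 fell. Timp1, an inhibitor of metalloproteases, was 0, 15.5 and 14.7 FPKM in SCPs and 152, 188 and 155 FPKM in RSCs, a difference of 4.70 (SE 1.11). Tspan17, a tetraspanin that accompanies ADAM10 out of the endoplasmic reticulum, was 0, 2.97 and 5.61 FPKM in SCPs and 27.1, 26.5 and 26.4 FPKM in RSCs, a difference of 3.22 (SE 0.68), and Tspan15, of the same family, rose by 2.59 (SE 0.25). In FPM Tspan5, Tspan15 and Tspan17 of this family were called higher in RSCs. Tspan14 and Tspan33 were called lower there, by -0.48 and -1.64, Tspan33 having reached the minimum mean only through its SCP values. Rhbdf2 and Frmd8, which bring ADAM17 to the cell surface and keep it there, rose by 1.88 and 0.35. Reck, a membrane-bound inhibitor of metalloproteases, fell by 1.04 (SE 0.11). Timp1, Tspan17 and Reck were named for the size of their change and the others after their values were seen, so they do not stand for the list. The regulators not called in FPKM differed by 0.06 (Rhbdf1), 0.11 (Timp3), 0.10 (Furin), 0.34 (Pcsk7), 0.02 (Tspan14) and 1.16 (Tspan5).

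Among 5 other ADAM genes tested, 1 rose in FPKM, Adam15, from 0, 5.75 and 7.55 in SCPs to 28.1, 39.8 and 36.1 in RSCs, a difference of 3.19 (SE 0.82). Adam12 was 48.3, 0 and 15.3 FPKM in SCPs and 7.58, 0 and 0 FPKM in RSCs and was not called, but in fragments its mean was 518 FPM in SCPs and 66.5 FPM in RSCs, and it was called (limma, adjusted p = 1.8e-06). Adam33, below the minimum level in FPKM, and Adam9, not called in FPKM, were called in FPM with the higher level in RSCs, Adam33 by 3.60, and Adam9 from 41.9 FPM in SCPs to 96.5 FPM in RSCs. In FPM 4 of 6 tested were called, 3 higher in RSCs and 1 higher in SCPs.

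Of 7 tested genes of beta- and gamma-secretase, 3 rose and none fell, in FPKM and in FPM alike, a share close to the 40.5% of all genes in FPKM and below the 62.7% in FPM. Bace2, the close relative of Bace1, had 2.62 ± 0.736 (SD, n = 3) FPKM in SCPs and 51.0 ± 5.21 (SD, n = 3) FPKM in RSCs, a difference of 3.86 (SE 0.19; limma, adjusted p = 5.4e-05). Bace2 was thus higher in RSCs while Bace1 fragments were higher in SCPs. Ncstn (nicastrin) and Aph1b, parts of the gamma-secretase complex, rose by 0.90 and 0.50.

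Of 9 tested substrates of these proteases, 4 rose and 3 fell in FPKM, and of 10 in FPM 5 rose and 5 fell. Ngfr, the p75 neurotrophin receptor, was 212 ± 33.8 (SD, n = 3) FPKM in SCPs and 972 ± 147 (SD, n = 3) FPKM in RSCs, a difference of 2.19 (SE 0.17), and Prnp, the prion protein and a ligand of ADGRG6, rose by 1.70 (SE 0.14). Cdh2 (N-cadherin) fell by 4.52 (SE 0.16), from 84.4 to 2.75 FPKM, and L1cam fell by 3.98 (SE 1.06), with 2 RSCs listed at 0. With unnamed transcripts counted, in FPM, L1cam fell by 1.25. Nrg1 was below the minimum level in FPKM, at 1.01, 1.02 and 1.097 in SCPs and at most 0.0646 in RSCs.

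Of 7 tested partners of gliomedin at the node, 1 rose and 1 fell in FPKM. Ezr (ezrin), a protein of Schwann cell microvilli, rose by 3.45 (SE 0.44), and Sdc3 (syndecan 3) fell by 0.64 (SE 0.078). Nrcam and Nfasc, the cell adhesion proteins that gliomedin binds, are named here after their values were seen. In named FPKM Nrcam was 0, 25.6 and 0 in RSCs and Nfasc at most 0.817, but in FPM Nrcam was 5.52 in SCPs and 135 in RSCs (4.42, SE 0.20), and Nfasc was 3.13 in SCPs and 43.7 in RSCs (3.43, SE 0.16). Over all 13 partners in FPM, 10 were called, and RSCs had the higher level for 6 of these. Among the 4 with the higher level in SCPs were Scn8a, a sodium channel of the node, with -3.25, and Cntn1 and Cntnap1, which join axon and glia beside the node, with -2.86 and -0.85.

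Of 12 tested genes around ADGRG6, 3 rose and 3 fell in FPKM, and 4 rose and 4 fell in FPM. Egr2 (Krox20), the transcription factor that turns on myelin genes, had 3.71 ± 0.580 (SD, n = 3) FPKM in SCPs and 37.4 ± 2.39 (SD, n = 3) FPKM in RSCs, a difference of 3.03 (SE 0.14), and Pou3f1 (Oct6), which acts before it, rose by 1.94 (SE 0.26). Prkaca, a catalytic subunit of the cyclic AMP-dependent kinase, fell by 1.08 (SE 0.11). Gnas, the G protein subunit that starts cyclic AMP synthesis, fell by 0.92 (SE 0.10), and Adcy6, an adenylyl cyclase, fell by 0.80 (SE 0.10). Prkacb, the other catalytic subunit listed, had 117 FPM in SCPs and 112 FPM in RSCs and was not called. Of the ligand genes listed in this role, Lamc1 rose by 0.82 and, in FPM, Lama2 rose by 4.37. Col4a1, Col4a2 and Lamb1 were not called on either measure. Creb1, a transcription factor that responds to cyclic AMP, was 14.6 to 22.2 FPKM in SCPs and at most 13.2 FPKM in RSCs and was not called in FPKM, but in FPM it was called and lower in RSCs, with a difference of -1.03 (SE 0.12). Of the 3 transcription factors in the list, Egr2 and Pou3f1 were thus higher and Creb1 lower in RSCs.

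**Figure D4:**
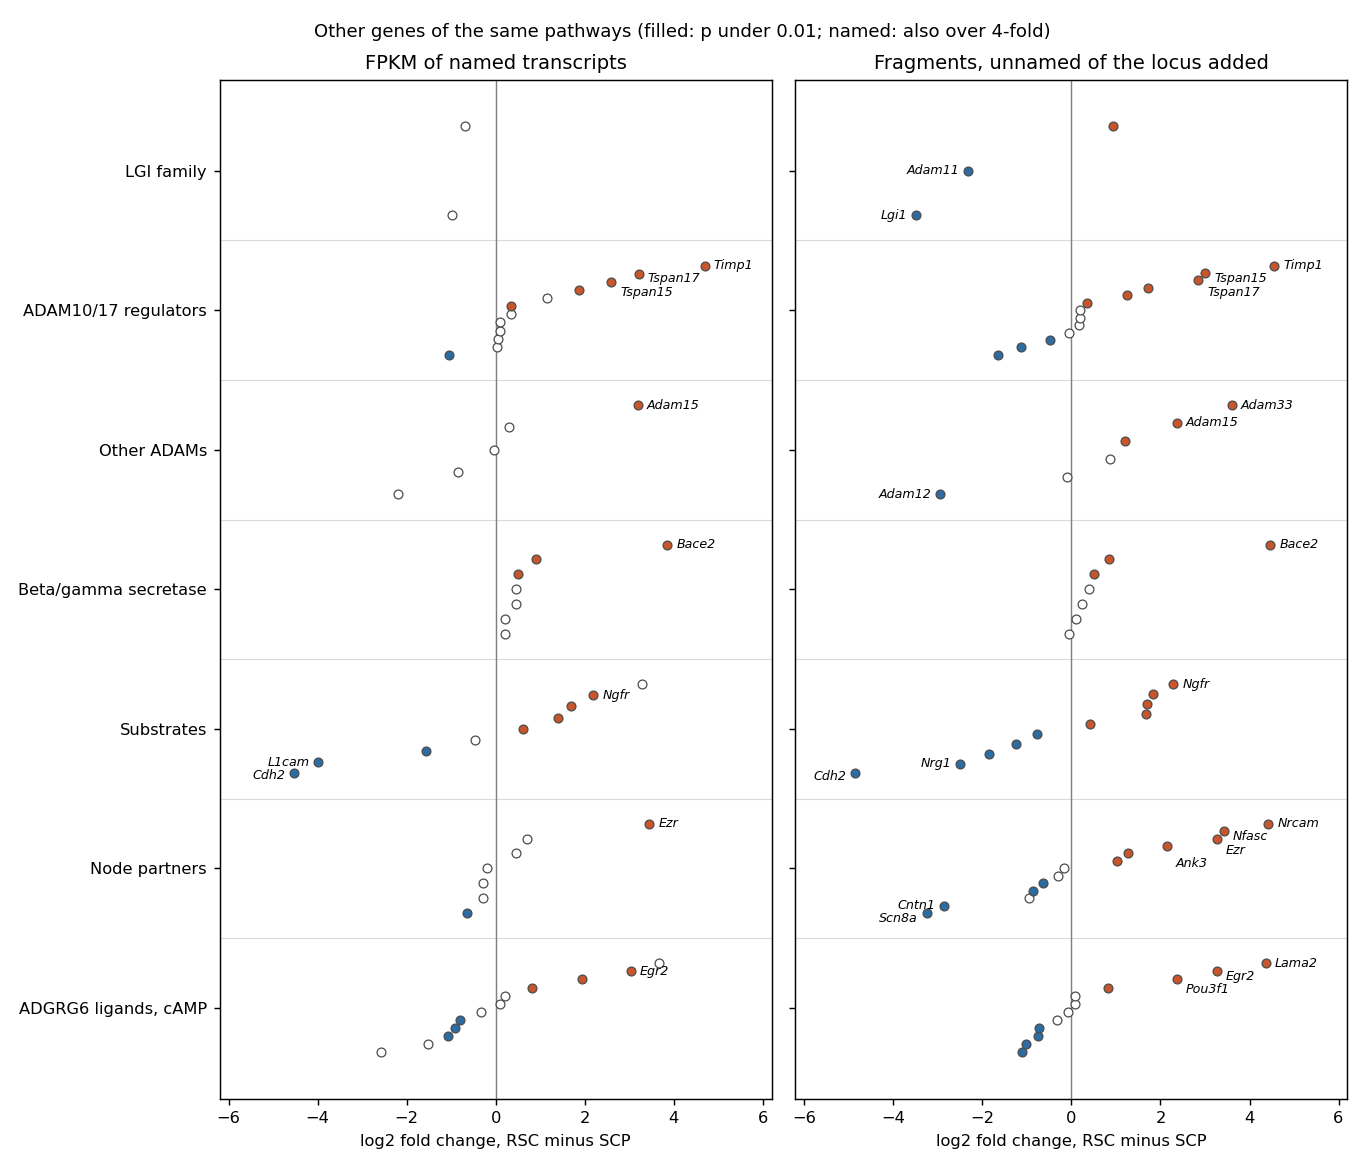
Log2 difference between RSCs and SCPs for each tested gene of the pathway list, by role, in FPKM of named transcripts on the left and in fragments with unnamed transcripts on the right. Filled points were called at p under 0.01, orange higher in RSCs and blue higher in SCPs, and names are given for those past 4-fold. More genes were called in fragments, 47 against 25, and Nrcam, Nfasc, Adam12, Adam33, Cntn1 and Scn8a are among those named on the right and not on the left.

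For Lgi4, Adgrg6 and Gldn the most alike genes were those with the smallest root mean square distance of centred log2(FPKM + 1) over the 6 samples, among 8605 or 8606 genes whose mean reached 5 FPKM. Magoh came first for Adgrg6 at a distance of 0.064, followed by Eid1 and Ccnd3, and each of the 3 was lower in all RSCs. Pcnx came first for Gldn at 0.071, followed by Auh at 0.083. For Lgi4 the nearest gene, Eci1, was at 0.40, and Eci1, LOC100362149 and LOC685085 were all listed at 0 in SCP replicate 3, so the likeness rested on that sample.

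Read counts are not in these tables, and how deeply each sample was sequenced is unknown. Relative depth, read from coverage over FPKM and set to 1.00 in the deepest sample, ranged from 0.88 upwards among SCPs and from 0.79 to 0.84 among RSCs. Besides leukocyte markers, 4 of 5 fibroblast markers were called higher in RSCs (18.1% of all genes tested). Their summed levels were 452 to 735 FPKM in SCPs and 4288 to 6720 FPKM in RSCs. All 4 skeletal muscle markers were called higher in SCPs (22.4% of all), Myod1, Myog and Myh3 having reached the minimum mean only through their SCP values. Of 7 genes of the response to tissue dissociation, 5 were called higher in RSCs, with sums of 649 to 701 FPKM in SCPs and 1305 to 2079 FPKM in RSCs. Summed markers of the Schwann lineage were 451 to 511 FPKM in SCPs and 1873 to 2395 FPKM in RSCs.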

How the data were processed

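The authors made stranded mRNA libraries from 3 SCP and 3 RSC preparations and sequenced them with paired-end reads of 100 bp. Per the submitters' processing notes, TopHat2 2.1.0 and Cufflinks 2.2.1 were used with the rn6 assembly. The 6 deposited tables, one from Cufflinks for every sample, list each transcript's FPKM with its bounds, and its read coverage, a signal used only to compare depth. In every table, date-like gene names (77 transcripts) were left out, and Gpr126 was read as Adgrg6.

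FPKM was summed by symbol (pandas 2.3.3) and fitted on log2(FPKM + 1) in limma 3.58.1 (R 4.3.3) with a variance trend, over the 13003 genes whose mean reached 1 FPKM. Fragments per 1000000 mapped (FPM) were FPKM times the length in kilobases, an approximation, since Cufflinks divides by an effective length. The fit was tested on simulated data. The paper reports 3 sets of Schwann cells per group for this experiment, but not whether these came from separate animals. The p-values therefore measure the spread between these preparations, and how far that reflects differences between animals is unknown. Replicate numbers come from the labels. With 3 samples per group and no counts, no sampling error can be given for a single value.

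The members, the pathway list and the marker lists were chosen with earlier results of these data known. All 8 members were named, and from the pathway list the 2 genes with the largest change in each direction per role at p under 0.01. Lgi1, Lgi3, Adam9, Adam11, Adam12, Adam33, Creb1, Cntn1, Cntnap1, Scn8a, Nrg1, Nrcam, Nfasc, Tspan15, Rhbdf2, Frmd8, Aph1b and Adcy6 were named after their values were seen. The same holds for Rhbdf1, Timp3, Furin, Pcsk7, Tspan5, Tspan14, Tspan33, Prkacb, Lamc1, Lama2, Col4a1, Col4a2 and Lamb1. Alternatives tried were no filter, a pseudocount of 0.1, a minimum mean of 5 FPKM, quantile and median-of-ratios scaling, no variance trend, a replicate block, adjusted p, each sample left out, the highest transcript, unnamed transcripts added and zeros left out. Unnamed transcripts added with median-of-ratios scaling, and both fragment measures, were added after seeing the data. Protein sequences were not used here, and some genes that these rules name are not reported.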

Additional observations from a re-analysis of the deposited data

How the results depend on the processing

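Adam23 and Adgrg6 kept their direction and their call under all 19 alternatives tried for them, from -3.35 to -1.98 for Adam23 and from -1.26 to -0.71 for Adgrg6. The count of members called, 2, was 4 with unnamed transcripts added to the FPKM, 4 with median-of-ratios scaling besides, 4 in fragments and 4 with unnamed transcripts inside the gene, and 2 to 3 when a sample was left out. The count past 4-fold and called, 1, was 2 in fragments, where Adam22 joins it with all RSCs at 0, 2 with those inside the gene, and 0 to 1 when a sample was left out, being 0 without SCP replicate 2. The pathway count, 25, was 39, 41, 47 and 48 under the same 4 settings in that order, and 20 to 25 when a sample was left out. Adam10 turned to 0.0046 with median-of-ratios scaling and to 0.011 with unnamed transcripts added besides, and Lgi4 to -0.080 in fragments including those inside the gene. Adam17, which missed the threshold, passed it under 2 of 19 alternatives, Bace1 under 3 of 19 and Gldn under 1 of 18. Lgi4 missed it as well and passed it under 2 of 19, at 0.57 and 0.84. Both of these settings had unnamed transcripts added to the FPKM, and both put RSCs higher.

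Same-numbered samples did not deviate together, with correlations of 0.0435, -0.00491 and 0.0259 over 13003 genes, so the numbers do not pair the samples. With the replicate number as a block the members called were 2, those past 4-fold 1, the pathway genes 23 and all genes 4275, against 5268 without it. Of all called genes 44.6% were higher in RSCs, and 55.5% with median-of-ratios scaling. The number called among all genes was 8040 with unnamed transcripts added and 9464 in fragments. The cause of these changes was not tested beyond the counting of unnamed transcripts itself. Low levels limit Gldn and Adam22, and the low-data mark of Cufflinks limits the named values of Bace1 and Lgi4.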
